A study of Homo sapiens with 4 samples.

Results

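Peaks of the transcription factor c-MYC were described at 9 genes of de novo fatty acid synthesis, FASN, ACACA, ACACB, ACLY, SLC25A1, SCD, ACSS2, ME1 and THRSP, out of 19689 protein-coding genes. The rule named the genes by their role in the pathway and used no peak values. A promoter peak was one whose summit lay at most 1 kb from a start site of transcription (TSS) used by a protein-coding transcript of that gene, and a second class of peaks lay elsewhere in the gene or within 10 kb upstream of it. By this rule the 9 genes held 19 peaks, of which 15 were promoter peaks and 4 were not. The DMSO c-MYC list held 11 of them (of 9552 peaks in all), AMG510 c-MYC 4 (of 10378), trametinib c-MYC 4 (of 5431) and the IgG control 0 (of 2966).

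The peaks came from chromatin immunoprecipitation followed by sequencing (ChIP-seq) of MIA PaCa-2, a long-established line of human pancreatic ductal adenocarcinoma cells, grown in DMEM with fetal bovine serum. The cells received DMSO (the solvent), the inhibitor AMG510 (100 nM) or trametinib, an inhibitor of the kinase MEK (10 nM), for 8 h. A c-MYC antibody was used on 1 library of each treatment, and non-specific immunoglobulin (IgG) on 1 further library of DMSO-treated cells. No group had a replicate, so no treatment could be tested against another, and every difference below is between single libraries of 1 cell line.

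De novo fatty acid synthesis builds long-chain fatty acids from citrate that leaves the mitochondria, or from acetate, and many tumours run it at a high rate to supply membrane lipids. SLC25A1 carries citrate out of the mitochondria, ACLY splits it into acetyl-CoA, ACSS2 makes acetyl-CoA from acetate, and ME1 supplies NADPH. ACACA and ACACB carboxylate acetyl-CoA to malonyl-CoA, FASN assembles palmitate, and SCD puts a double bond into the product. THRSP is a nuclear protein that has been proposed to promote the transcription of these genes. The pathway is classically switched on by the sterol regulatory element binding protein encoded by SREBF1. MYC binds DNA as a dimer with MAX, with a preference for the E-box CACGTG and a weaker one for variants such as CACGCG.

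In DMSO-treated cells, 6 of the 9 genes had a c-MYC promoter peak, namely FASN, ACACA, ACLY, SLC25A1, SCD and ME1. In AMG510-treated cells 3 genes had one (ACACA, ACLY and ME1), and in trametinib-treated cells 2 had one (ACACA and FASN). Only ACACA had one in all 3 c-MYC libraries, and ACACB, ACSS2 and THRSP had none in any. The IgG library had no peak of either class at any of the 9 genes. FASN had the most tags at its DMSO summit, 32, and its trametinib peak lay at another position, farther upstream.

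The depth in peak calling, recovered from the lists, was 22700000 tags for IgG and 24000000, 24300000 and 24800000 tags for the DMSO, AMG510 and trametinib c-MYC libraries. A tag is an aligned read, extended to 143, 177, 157 and 163 bp in these libraries in that order, and where the local background was at its genome-wide value the smallest called pileup was 7 or 8 tags. As a check of the immunoprecipitation, promoter peaks were counted at 10 genes widely used as MYC targets: 8, 7 and 8 had one in the DMSO, AMG510 and trametinib c-MYC lists, and 0 had one in IgG. The pileups there were not alike, with 86, 42 and 53 tags at NPM1, 59, 35 and 36 at NCL and 59, 17 and 20 at ODC1 in the same order. At each of the 7 check genes with a peak in all 3 lists, the highest pileup was that of DMSO c-MYC. A weaker immunoprecipitation and less c-MYC on chromatin cannot be told apart in single libraries. The DMSO c-MYC list held 4617 promoter peaks, AMG510 c-MYC 2806 and trametinib c-MYC 2124, so the treated lists had fewer over the whole genome, and counts at the 9 genes are given beside those shares.

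The sequence under the FASN summit is shown first because FASN was the gene with the highest pileup and the only one with an E-box within 100 bp of a summit. All sequences here are from GRCh38, are read 5′ to 3′ on the strand of the gene, and carry CACGTG or CACGCG, searched on both strands, in capitals. The first line holds 81 bp around the DMSO summit, with the E-box 4 bp from the summit and 360 bp upstream of the canonical TSS. The next pair holds the other E-boxes, of which the one 555 bp downstream of the TSS lay in the DMSO peak and the one 930 bp upstream in the trametinib peak. The last holds 81 bp around the trametinib summit and contains neither motif.
FASN DMSO summit, chr17:82098552-82098632, minus strand: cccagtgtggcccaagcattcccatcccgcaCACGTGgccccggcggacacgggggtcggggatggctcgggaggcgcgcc
FASN downstream E-box, chr17:82097664-82097693, minus strand: cggcctccccatCACGTGgcgcagcccggc
FASN upstream E-box, chr17:82099154-82099183, minus strand: gactccgctcgcCACGTGgccgcgcccctc
FASN trametinib summit, chr17:82099234-82099314, minus strand: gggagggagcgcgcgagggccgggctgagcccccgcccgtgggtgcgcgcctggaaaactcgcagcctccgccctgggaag

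The ACLY windows show the only E-box in a peak outside FASN and the CACGCG closest to a summit. The E-box lay 525 bp upstream of the canonical TSS, 126 bp from the upstream DMSO summit, and the CACGCG lay 9 bp from the DMSO summit in intron 1.
ACLY upstream E-box, chr17:41919464-41919493, minus strand: ggagagaggctcCACGTGctaaaggaaagc
ACLY intron 1 summit, chr17:41918742-41918822, minus strand: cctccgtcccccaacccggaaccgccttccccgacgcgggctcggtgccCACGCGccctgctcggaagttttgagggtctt

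The ACACA sequence is the 131 bp outside untranslated regions (UTR) that the DMSO, AMG510 and trametinib peaks had in common, the only stretch at any of the 9 genes with a peak in all 3 c-MYC libraries. It holds neither CACGTG nor CACGCG, and its GC content is 81.7%.
ACACA shared stretch, chr17:37406950-37407080, minus strand: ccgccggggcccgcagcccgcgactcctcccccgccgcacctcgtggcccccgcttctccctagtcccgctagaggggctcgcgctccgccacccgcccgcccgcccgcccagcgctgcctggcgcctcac

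The summits of ME1, SLC25A1 and SCD in DMSO-treated cells are shown because they held no E-box. The SCD window is kept to 30 bp because it lies in the 5′ UTR. The last line is the trametinib summit in intron 3 of ME1, shown for contrast in base composition.
ME1 DMSO summit, chr6:83431110-83431190, minus strand: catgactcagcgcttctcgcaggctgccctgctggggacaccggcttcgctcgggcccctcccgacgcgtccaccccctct
SLC25A1 intron 1 summit, chr22:19178528-19178608, minus strand: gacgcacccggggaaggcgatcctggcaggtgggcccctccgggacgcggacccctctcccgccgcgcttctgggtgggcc
SCD DMSO summit, chr10:100347257-100347286, plus strand: tgcttggcagcggataaaagggggctgagg
ME1 intron 3 trametinib summit, chr6:83357306-83357386, minus strand: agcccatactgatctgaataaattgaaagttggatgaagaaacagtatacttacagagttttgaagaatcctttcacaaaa

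The share of genes with a promoter peak was set beside the share over all protein-coding genes. In DMSO c-MYC it was 6 of 9 (66.7%), against 24.2% of all genes. In AMG510 c-MYC it was 3 of 9 (33.3%), against 15.3%, and in trametinib c-MYC 2 of 9 (22.2%), against 11.8%. In IgG it was 0 of 9, against 0.559%. At this setting the share at the 9 genes lay above that over all genes in each c-MYC library. In trametinib c-MYC it rested on 2 genes, and 1 remained with a limit of 500 bp or the canonical TSS alone. So small a count does not separate these genes from the background, and 9 genes chosen for their function carry no test of any excess.

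Of the 6 genes with a DMSO promoter peak, 3 also had one in AMG510 c-MYC (ACACA, ACLY and ME1), where 43.0% of all 4763 such genes did. In trametinib c-MYC 2 did (FASN and ACACA), where 35.3% of all such genes did. By position fewer were matched. Of the 10 DMSO promoter peaks, 2 (20.0%) were overlapped by an AMG510 peak and 1 (10.0%) by a trametinib peak, beside 33.1% and 27.7% of all DMSO promoter peaks. The shares at these genes rest on 1 or 2 peaks and do not separate them from promoter peaks at large.

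**Figure D1:**
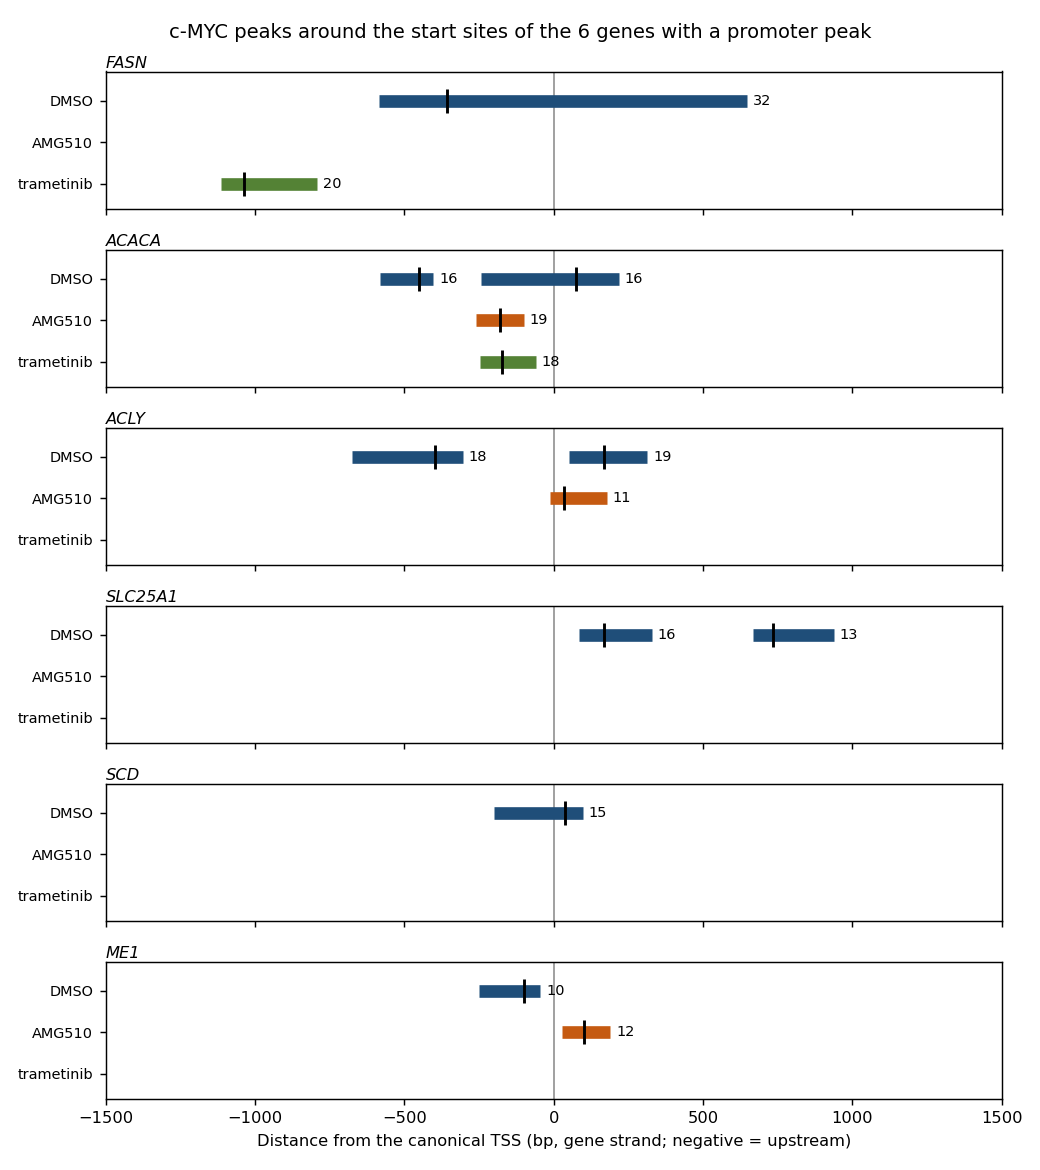
Peaks near the start sites of the 6 genes with a promoter peak. Each panel is 1 gene, with distance from its canonical TSS in bp on the horizontal axis (negative is upstream) and 1 row for each c-MYC library. Bars mark peaks, black ticks their summits, and the number beside a bar is the tags at its summit. The FASN DMSO peak is the widest at 1233 bp, and the FASN trametinib peak lies upstream of it with a gap of 209 bp. The ACACA peak 47895 bp downstream of the canonical TSS lies outside the panel.

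FASN (ENSG00000169710.9, chr17:82078338-82098294, minus strand) encodes the synthase itself. Its DMSO promoter peak spanned 1233 bp, wider than 99.9% of the peaks in its list, and its summit lay 356 bp upstream of the canonical TSS. The pileup there was 32 tags (95% counting interval 21.9 to 45.2) over a local background of 4.46 tags. Its fold enrichment, here and below a ratio taken after a tag is added to both numbers, was 6.04. That enrichment was above 86.4% of all DMSO peaks and above 78.3% of DMSO promoter peaks. The FASN peak was thus an upper-range peak of its list, though not among its strongest.

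No AMG510 peak was called at the FASN promoter. The only AMG510 peak in the gene lay 13132 bp downstream of the canonical TSS, in coding exon 25, with 11 tags (5.49 to 19.7) and a fold enrichment of 4.28, above 43.4% of its list. It had neither CACGTG nor CACGCG within 100 bp of the summit. In trametinib-treated cells a peak of 320 bp was called 1038 bp upstream of the canonical TSS by its summit. The nearest protein-coding TSS was 980 bp away, which places the peak just inside the 1 kb limit. It had 20 tags (12.2 to 30.9) over a background of 3.41, a fold enrichment of 4.77. The DMSO and trametinib peaks did not overlap, and their summits were 682 bp apart.

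ACACA (ENSG00000278540.5, chr17:37084992-37406836, minus strand), the cytosolic acetyl-CoA carboxylase, is the longest of the 9 genes at 322 kb and has 8 protein-coding start sites. It had 3 promoter peaks in DMSO c-MYC. The summit 73 bp downstream of the canonical TSS, in the 5′ UTR, had 16 tags (9.15 to 26.0), and the one 451 bp upstream also had 16 tags (9.15 to 26.0). The summit 47895 bp downstream, 155 bp from an alternative protein-coding TSS, had 17 tags (9.90 to 27.2). Their fold enrichments of 4.03, 3.94 and 4.57 were above 25.4%, 22.2% and 49.0% of the DMSO list, so none of these was in the upper part of its list.

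The AMG510 peak of ACACA lay 180 bp upstream of the canonical TSS with 19 tags (11.4 to 29.7) and a fold enrichment of 5.62. The trametinib peak lay 173 bp upstream with 18 tags (10.7 to 28.4) and a fold enrichment of 5.65. These were above 90.2% and 85.6% of their lists, higher ranks than that of the DMSO peak. The ACACA start site lies close to those of TADA2A, an adaptor gene of histone acetyltransferase complexes read in the opposite direction. The nearest TADA2A start, taken for each peak, lay 77 bp from the AMG510 summit and 70 bp from the trametinib summit. For the upstream DMSO summit the nearest was a different TADA2A start, 27 bp away. Peaks at this shared promoter cannot be assigned to ACACA rather than to TADA2A from these data.

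A further DMSO peak of ACACA lay in intron 1, 58797 bp into the gene and 11057 bp from its nearest protein-coding start. It had 10 tags (4.80 to 18.4) and a fold enrichment of 3.44, above 4.98% of its list, and was the only DMSO peak at the 9 genes that was not a promoter peak.

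ACLY (ENSG00000131473.17, chr17:41866917-41930542, minus strand), which makes cytosolic acetyl-CoA from citrate, had a pair of DMSO promoter peaks. The one with its summit in intron 1, 169 bp downstream of the canonical TSS, had 19 tags (11.4 to 29.7) and a fold enrichment of 5.66, above 81.2% of the list. The one 399 bp upstream had 18 tags (10.7 to 28.4) and a fold enrichment of 5.30, above 74.1%. Together with FASN, these were the 3 DMSO promoter peaks that ranked above 50% of their list.

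In AMG510-treated cells ACLY had 1 peak, 34 bp downstream of the canonical TSS in the 5′ UTR, with 11 tags (5.49 to 19.7) and a fold enrichment of 4.21. It overlapped the intron 1 peak of DMSO by 128 bp, and nothing was called at the upstream position. In trametinib-treated cells no peak was called in ACLY, and the nearest trametinib summit was 106 kb from a protein-coding TSS of the gene.

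SLC25A1 (ENSG00000100075.10, chr22:19175581-19178739, minus strand), the mitochondrial citrate carrier, is the shortest of the 9 genes at 3.16 kb. Its DMSO summit in intron 1, 168 bp downstream of the canonical TSS, had 16 tags (9.15 to 26.0) and a fold enrichment of 3.85. A DMSO summit in coding exon 3, 736 bp downstream, had 13 tags (6.92 to 22.2) and a fold enrichment of 3.25, above 1.89% of the list. Both were weak peaks, and neither treated library had a peak at the gene. The summits nearest to its protein-coding start sites were 44.1 kb away in AMG510 c-MYC and 141 kb away in trametinib c-MYC.

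SCD (ENSG00000099194.6, chr10:100347233-100364826, plus strand), the stearoyl-CoA desaturase, had 1 DMSO promoter peak with its summit 38 bp downstream of the TSS in the 5′ UTR. It had 15 tags (8.40 to 24.7) and a fold enrichment of 4.10, above 28.1% of the list. No AMG510 summit lay closer to the TSS than 153 kb. The trametinib list had a peak in intron 3 of SCD, 6522 bp downstream, with 14 tags (7.65 to 23.5) and a fold enrichment of 5.96, above 89.3% of its list.

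ME1 (ENSG00000065833.9, chr6:83210402-83431051, minus strand), the cytosolic malic enzyme, had its DMSO summit 99 bp upstream of the TSS with 10 tags (4.80 to 18.4) and a fold enrichment of 3.85. The AMG510 summit lay in coding exon 1, 101 bp downstream, with 12 tags (6.20 to 21.0) and a fold enrichment of 5.38, above 85.1% of its list. These peaks were 71 bp apart and did not overlap, so by gene ME1 kept a promoter peak in AMG510 c-MYC and by position it did not. The trametinib list had a peak in intron 3, 73705 bp downstream, with 15 tags (8.40 to 24.7) and a fold enrichment of 6.08.

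ACACB, ACSS2 and THRSP had no peak in any library. ACACB encodes the carboxylase at the outer mitochondrial membrane, whose malonyl-CoA restrains fatty acid oxidation. Measured from the nearest protein-coding TSS of the gene, the nearest DMSO summit was 18.5 kb from ACACB, 49.5 kb from ACSS2 and 75.7 kb from THRSP. Each of these summits lay at the promoter of another gene, UNG, NCOA6 and ALG8 respectively. Over all protein-coding genes, 68.3% had no promoter peak in any c-MYC library.

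**Figure D2:**
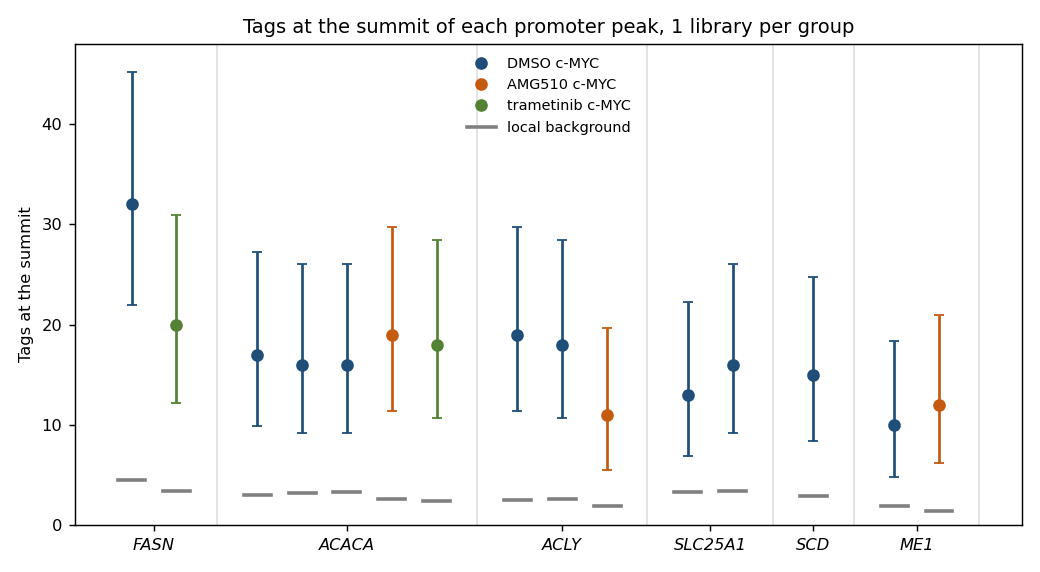
Tags at the summit of each of the 15 promoter peaks at the fatty acid synthesis genes. The vertical axis is the pileup in tags, colours stand for the c-MYC libraries, bars are 95% counting intervals of single libraries, and grey lines mark the local background. The FASN DMSO peak stands highest at 32 tags, and every other one lies between 10 and 20 tags, above its local background.

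The remaining 4 peaks, those that were not promoter peaks, were the ones in ACACA (DMSO), FASN (AMG510), SCD (trametinib) and ME1 (trametinib). By gene, 1 of 9 had such a peak in DMSO c-MYC, where 13.6% of all genes did, and 1 of 9 in AMG510 c-MYC, where 16.7% did. In trametinib c-MYC 2 of 9 had one, where 8.92% did, and in IgG 0 of 9, where 6.33% did. Counts of 0 to 2 do not separate these genes from the background.

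Of these 4 peaks, 3 had a lower GC content than every promoter peak at the 9 genes. GC content was 53.7% around the ACACA intron 1 summit in DMSO c-MYC, below all but 3.86% of the promoter peaks of its list. It was 44.3% around the SCD intron 3 summit and 32.3% around the ME1 intron 3 summit, over the bases within 100 bp of the summit. Promoter peaks at the 9 genes had a GC content between 59.7% and 80.1% after DMSO, 68.7% and 80.1% after AMG510 and 73.1% and 79.6% after trametinib. Only 0.188% of all trametinib promoter peaks had a lower GC content than the ME1 intron 3 summit, and 1.84% a lower one than SCD intron 3. Around the FASN exon 25 summit in AMG510 c-MYC it was 66.7%. The part of base composition in these peaks was not tested.

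Summit tags could be set side by side where a treated library had a promoter peak at the same gene after dividing by the depth in calling. For FASN the log2 ratio of trametinib to DMSO was -0.73 (95% interval -1.61 to 0.12), between summits at different positions. For ACACA, with the peaks overlapping by 144 bp and 185 bp, the log2 ratio to the 5′ UTR peak of DMSO was 0.23 (-0.81 to 1.28) for AMG510 and 0.12 (-0.93 to 1.19) for trametinib. AMG510 against DMSO gave a log2 ratio of -0.81 (-2.03 to 0.34) for ACLY, and for ME1 it was 0.24 (-1.09 to 1.61). Each of the 5 intervals held 0, so at this depth none of these summits differed beyond counting error, and the intervals also held differences of more than 1 log2 unit in at least 1 direction. The intervals cover counting error only, and since both mates of a fragment may count as tags they are too narrow. Pileup also rises with extension length, which was longest in DMSO c-MYC, so dividing by depth alone lowers each of these ratios. Scaled by the genome-wide background, the ratio was -0.61 for FASN. For ACACA it was 0.40 with AMG510 and 0.24 with trametinib, for ACLY -0.64 and for ME1 0.42.

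Whether an uncalled peak could have been seen was worked out for each DMSO promoter peak. Its tags were scaled to the depth and extension length of the treated library through the genome-wide background, and set against the pileup needed for a call there at the scaled local background. For FASN the scaled pileup was 28.8 tags (19.7 to 40.6) in AMG510 c-MYC, where 13 were needed, and 30.5 (20.8 to 43.0) in trametinib c-MYC, where 14 were needed. For the upstream ACLY peak it was 16.2 (9.60 to 25.6) against 9 needed in AMG510 c-MYC and 17.1 (10.2 to 27.1) against 10 needed in trametinib c-MYC. For the intron 1 peak of ACLY it was 18.1 (10.9 to 28.2) against 10 in trametinib c-MYC. At these positions the counting interval of the scaled pileup lay above the number needed, and no peak was called. The positions were taken at summits called in DMSO c-MYC, which favours high pileups there, and the intervals do not cover that choice. For ACLY the lower bound passed that number by less than 1 tag, and the intervals are too narrow, so the margin over counting error was wide only for FASN. The scaling takes the local background of the treated library to be that of DMSO c-MYC after scaling. It also takes the immunoprecipitation to be equally strong. The MYC check genes with a peak in all c-MYC lists had their highest pileup in DMSO c-MYC. A missing call at FASN or ACLY therefore cannot be told apart from a weaker immunoprecipitation. At the background of 3.41 tags measured for the FASN trametinib peak, 12 tags would have been needed.

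For the other uncalled positions, 6 in each treated library, the interval reached below the number needed. For SCD the scaled pileup was 13.5 tags (7.55 to 22.3) against 10 needed in AMG510 c-MYC and 14.3 (7.99 to 23.5) against 11 in trametinib c-MYC. For the intron 1 peak of SLC25A1 it was 14.4 (8.23 to 23.4) against 11 and 15.2 (8.70 to 24.7) against 12. For ME1 the interval ran from 4.31 to 16.5 tags against 8 needed in AMG510 c-MYC and from 4.56 to 17.5 against 8 in trametinib c-MYC. The scaled pileup itself lay above the number needed at each of these positions, and only its lower bound did not. Since each peak had already passed the call limit in DMSO c-MYC at a similar depth, the former was nearly fixed in advance. At SCD, SLC25A1 and ME1 the counts therefore do not settle whether a missing call reflects fewer tags than in DMSO c-MYC. ME1 had its AMG510 peak of 12 tags 71 bp from the DMSO peak.

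**Figure D3:**
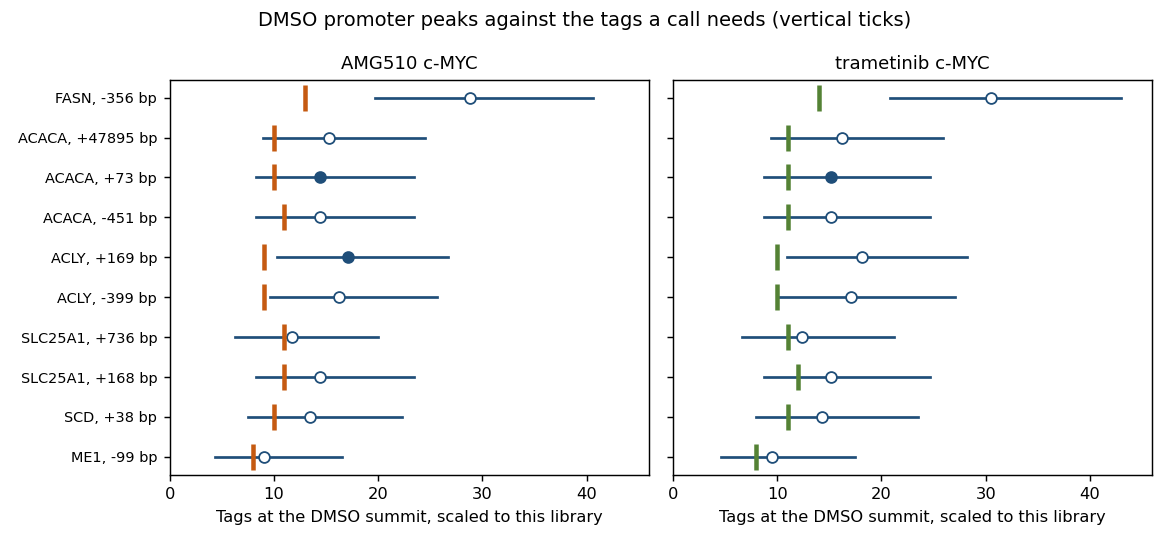
Scaled DMSO pileup against the pileup needed for a call in each treated library. Points are the DMSO promoter peaks, named by the distance of their summit from the canonical TSS and scaled to AMG510 c-MYC or trametinib c-MYC in tags, bars are 95% counting intervals, ticks mark the tags needed, and filled circles mark peaks overlapped in that library. The intervals of FASN and of both ACLY peaks lie above the ticks, and those of the other genes reach below them.

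The position of a gene's peaks over the 3 c-MYC libraries was also set beside the same pattern over all protein-coding genes. SLC25A1 and SCD, with a promoter peak in DMSO c-MYC only, shared this with 10.9% of all genes. ACLY and ME1, with one in DMSO and AMG510 c-MYC, shared it with 4.80%, FASN, with one in DMSO and trametinib c-MYC, with 2.94%, and ACACA, with one in all of them, with 5.59%. Of the 9 genes only ACACB, ACSS2 and THRSP lacked a DMSO promoter peak, and none of them gained one in a treated library. Over all genes 4.21% did in AMG510 c-MYC alone, 2.60% in trametinib c-MYC alone and 0.691% in both. These shares are of all 19689 genes, including the 4763 with a DMSO promoter peak, which could not gain one. With so few of the 9 genes able to gain a peak, the lack of a gain does not separate them from the background.

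**Figure D4:**
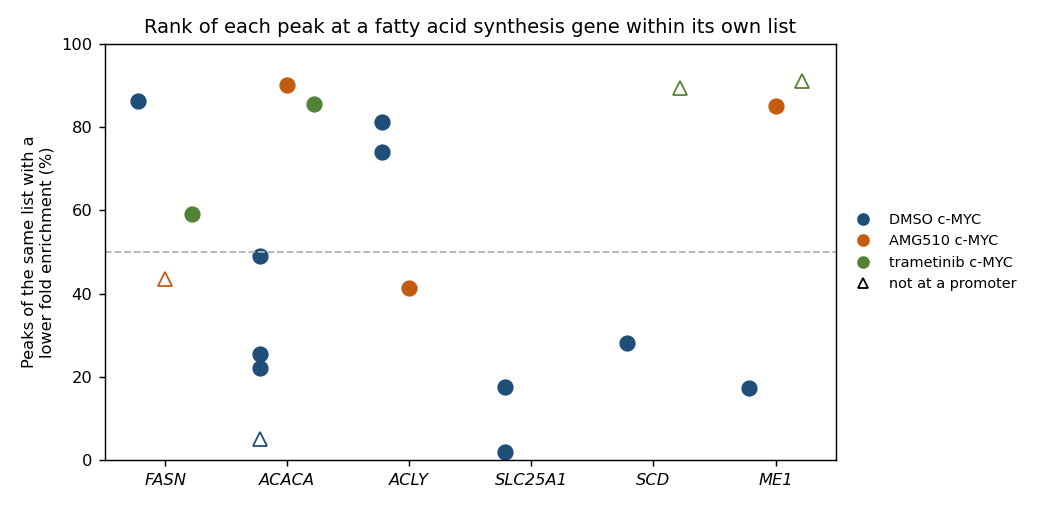
Rank of each peak at the fatty acid synthesis genes within its own list. The vertical axis is the percentage of peaks in the same list with a lower fold enrichment, colours stand for the c-MYC libraries, open triangles are peaks that are not at a promoter, and the dashed line is at 50%. The DMSO promoter peaks spread from 1.89% to 86.4% with 3 of 10 above 50%, while the 3 AMG510 promoter peaks lie between 41.3% and 90.2% and the 2 trametinib ones between 59.1% and 85.6%.

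Ranks differed between the lists. The median rank of the promoter peaks at the 9 genes was 26.8% over the 10 DMSO peaks, 85.1% over the 3 AMG510 peaks and 72.3% over the 2 trametinib peaks. Fold enrichment is not on the same scale in lists that differ in extension length and local background. The local background under these peaks was 1.86 to 4.46 tags after DMSO, 1.42 to 2.56 after AMG510 and 2.36 to 3.41 after trametinib. A rank is a place within a single list and is not a level of c-MYC.

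An E-box lay within 100 bp of the summit in 1 of the 10 DMSO promoter peaks (FASN), 0 of 3 in AMG510 c-MYC and 0 of 2 in trametinib c-MYC. Over all promoter peaks of the same library the share was 16.9% after DMSO, 14.4% after AMG510 and 17.3% after trametinib, and 4.59% in IgG. With CACGCG counted as well, the DMSO count was 5 of 10, beside 37.0% of all DMSO promoter peaks. The peaks that joined were that of ACACA at its alternative start site, 1 at its canonical start site, the intron 1 peak of ACLY and that of SCD. In AMG510 c-MYC the ME1 peak held a CACGCG 49 bp from its summit. These shares lie near those of promoter peaks at large, and a match says nothing of whether MYC contacts it.

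Over the 1 kb on each side of the canonical TSS, CACGTG was found at 4 of the 9 genes (FASN, ACLY, SCD and SLC25A1), beside 29.2% of 19626 genes with such a window. FASN held 3 and the others 1 each. CACGCG was found at 6 of the 9, the 6 with a DMSO promoter peak, beside 41.5% of all genes. ACACB, ACSS2 and THRSP, the genes without a peak, held neither motif in this window. They also had the lowest GC content there, 47.0%, 56.9% and 50.8%, beside 57.7% to 77.7% at the other genes. Motif and base composition were not separated, and a link of either to the peaks was not tested.

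The sterol element TCACNCCAC, to which the SREBF1 product binds, was searched on both strands in the same windows. It was found at FASN, ACACB and THRSP, beside 10.0% of all genes. In FASN it lay 137 bp upstream of the canonical TSS, inside the DMSO peak and 211 bp from its summit, and is shown here in capitals within its surroundings. No other peak at the 9 genes held one.
FASN sterol element, chr17:82098363-82098391, minus strand: cgcacgagcaTCACCCCACcggcggcggc

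Related genes were taken from 4 lists with 50 genes in all. Of 12 genes that supply acetyl-CoA and NADPH, such as the mitochondrial pyruvate carrier and the pentose phosphate pathway, 6, 2 and 2 had a promoter peak in the DMSO, AMG510 and trametinib c-MYC lists, and 0 had one in all of them. Of 17 genes that elongate, desaturate, activate or esterify the product, 2, 1 and 2 had one. Of 7 genes of mitochondrial fatty acid synthesis, a separate pathway that feeds lipoic acid synthesis, 3, 1 and 1 had one. Over all genes the shares were 24.2%, 15.3% and 11.8%, in the same order. None of the 50 had a promoter peak in IgG. In each of these 3 lists at most as many genes had a promoter peak in a treated library as in DMSO c-MYC, as over all genes.

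Of 14 regulators, a promoter peak was found at 5 after DMSO, 5 after AMG510 and 3 after trametinib, beside the same 24.2%, 15.3% and 11.8% of all genes. SREBF1 and MBTPS2, which encodes a protease that releases the sterol regulatory proteins from the membrane, had one in all 3. The SREBF1 pileup was 34 tags after DMSO, 20 after AMG510 and 16 after trametinib, with fold enrichments of 7.15, 4.85 and 3.87. The pileup at MBTPS2 was 18, 12 and 11 tags, with fold enrichments of 6.90, 4.91 and 3.71. Both were highest in DMSO c-MYC, as were the MYC check genes given above, so the order is not particular to these regulators. MCAT, the malonyl transferase of the mitochondrial pathway, was the only other of the 50 genes with a promoter peak in all 3, at 14 tags in each.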

How the data were processed

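The data were MACS2 peak lists of 4 ChIP-seq libraries of MIA PaCa-2 cells, grouped by the sample titles, with 1 library in each group. Per the submitters' processing notes and methods, the authors used Trimmomatic 0.39, BWA 0.7.17, SAMtools 1.9, Picard, bedtools 2.27.1 and MACS2 2.2.7.1 with GRCh38, called peaks for each library and removed regions of the ENCODE exclusion list. IgG is not stated to have served as the control in calling. The deposited lists hold, for each peak, a score, a fold enrichment, and the −log10 of the p-value and of the q-value, all made by the authors. Fold enrichment was taken as the ratio of summit pileup to local background with 1 tag added to each. Every peak passed q = 0.05.

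Summit pileups, local background and depth in calling were recovered here by solving the deposited fold enrichment and Poisson p-value for a whole number of tags (tolerance 0.001, met by every peak) taking the shortest peak width as extension length and the genome as 2700000000 bp. This was tested on simulated data. Genes came from GENCODE 44, without the mitochondrial genome and the Y copies of pseudoautosomal genes, which repeat others. Only transcripts typed as protein-coding gave start sites. Positions in exons refer to the canonical transcript. Overlap needed 1 bp. Percentages of a list and GC content (within 100 bp of the summit) were computed within each list. Intervals are exact 95% Poisson, binomial or conditional binomial intervals and cover counting error only. Python 3.11.15, numpy 2.4.6, scipy 1.17.1 and pandas 2.3.3 were used. No test between treatments was run.

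All 9 genes are named with every peak; of the related lists, genes with a promoter peak in all c-MYC libraries are named, and the rest are counted. The genes and lists were chosen with earlier results of these data known. Alternatives were peak strength, distance to the TSS, TSS set, upstream reach, overlap rule, motif and scaling.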

Additional observations from a re-analysis of the deposited data

How the results depend on the processing

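No paired analysis was possible because no group had more than 1 library, and no replicate could be left out. Alternatives gave 75 values for 18 results, of which 54 stayed within 1.5 times a count or within the counting interval. Of the log2 ratios 0 changed sign, and a count cannot. The 54 include the IgG counts, which were 0 under every setting. Keeping only peaks with a fold enrichment above 5 lowered the genes with a promoter peak from 6 to 2 in DMSO c-MYC, from 3 to 2 in AMG510 c-MYC and from 2 to 1 in trametinib c-MYC, so that DMSO and AMG510 were then equal, and the peaks elsewhere to 0 in DMSO and AMG510 c-MYC. With only scores above 60, the DMSO, AMG510 and trametinib lists had 2, 1 and 1 such genes, and 0, 0 and 1 peaks elsewhere. These alternatives remove weak peaks by construction. A limit of 500 bp, or the canonical TSS alone, left 1 gene in trametinib c-MYC, since FASN dropped out. With the start sites of every transcript type, AMG510 c-MYC had 4 genes in place of 3, FASN included. The only AMG510 peak in FASN lay in coding exon 25, 5726 bp from the nearest protein-coding TSS of the gene. Reaching 50 kb upstream gave 5 DMSO peaks elsewhere.

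DMSO promoter peaks matched by AMG510 and trametinib peaks went from 2 and 1 to 0 and 0 with a reciprocal overlap of 50%, and to 5 and 3 with summits within 1 kb. No share over all DMSO promoter peaks stands beside these counts. Within 250 bp of the summit, an E-box was found in 2 DMSO peaks in place of 1 and in 1 trametinib peak in place of 0. With CACGCG added, 5 DMSO peaks and 1 AMG510 peak held a motif. Scaling by the genome-wide background was chosen after seeing the data. Single libraries and pileups of 10 to 32 tags limit every comparison.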
